A study of Mus musculus with 4 samples.

Results

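The genes described here encode the proteins of the cytosolic ribosome. They were chosen by symbol: every gene whose symbol begins with Rps or Rpl and a digit, with Rplp and a digit, or is Rpsa. The rule found 113 of the 27998 genes listed. Of these, 79 are ribosomal protein genes in the strict sense (called core genes below, 32 of the small and 47 of the large subunit), and 7 are paralogs with a tissue-restricted or variant product. A further 16 are named pseudogenes, 10 are ribosomal S6 kinases and 1, Rps19bp1, encodes a protein that binds Rps19. The core genes include Rps27rt and Rpl6l, which are near-identical copies of Rps27 and Rpl6, so reads of copy and parent can be split between them. Fau and Gnb2l1 (also called Rack1) encode ribosomal proteins too but do not match the rule and are given beside it.

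RNA of single mouse cells was counted in 4 droplet libraries, named IgG, Ac, C and aC+C, each the sole library of its group. The labels give no meaning for these names, no tumor model, no allele and no number of animals; they give an age of 6 to 8 weeks for all 4 groups. Titles name immune cells of tumors, whereas the cell type label and protocol name goblet cells sorted by mCherry from colon and small intestine of RedMUC2 98trTg reporter mice, with C57Bl6 as negative control. The counts go against goblet cells as the main cell type. Muc2, the main mucin of goblet cells, had 2 to 4 unique molecular identifiers (UMIs, 1 per captured transcript) in a whole library. Clca1 had 0, while Fcgbp had 47 in aC+C. Epcam, an epithelial gene checked with them, had 305 to 541 UMIs per library, in 4.41 to 8.79% of barcodes. By contrast, 87.0 to 91.3% of barcodes had a UMI of Ptprc, the gene of the leukocyte surface protein CD45.

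Barcodes with at least 1000 UMIs and at most 10% mitochondrial UMIs numbered 3436, 4028, 4210 and 4081, with median depths of 10492 to 11594.5 UMIs. Libraries shared 2 to 7 of these barcodes per pair. Barcodes were sorted into gates by marker UMIs, none of them a ribosomal protein gene: CD8 T by Cd3 and Cd8 genes, CD4 T by Cd4, regulatory T by Foxp3, NK by Ncr1, Klrb1c and Klra genes, monocyte or macrophage by genes such as Csf1r and C1qa, and mesenchymal by Dcn and collagen genes. A barcode was cycling with at least 10 UMIs of 14 proliferation genes per 10000 UMIs and non-cycling under 5. Here and below, 4 values in a row follow the order of the library names above, and 3 ratios leave out IgG, their denominator. With 1 library per group, nothing was tested between groups. Gates and cycling states were compared within each library, with the 4 libraries as replicates that differ in treatment.

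Ribosomal proteins are made in equal amounts, 1 copy of nearly each per ribosome, and their messenger RNAs are among the most abundant of a cell. Most of these RNAs begin with a run of pyrimidines, the 5′ terminal oligopyrimidine (TOP) motif, through which mTOR signalling raises or lowers their translation as a group. Lymphocytes are known for a high share of these transcripts, and growing cells build more ribosomes before they divide.

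Core ribosomal protein genes took 25.2, 24.5, 24.7 and 24.7% of all UMIs in the 4 libraries, and the gates stood far apart. Among non-cycling barcodes, NK held the highest share of the large gates at 32.7, 33.1, 32.6 and 32.3%. CD8 T followed at 28.4, 29.5, 30.0 and 30.8%, and the libraries of the 2 gates did not overlap. Monocyte or macrophage barcodes were lowest at 15.3, 16.6, 16.9 and 16.2%. CD8 T lay 13.4 percentage points above monocytes and macrophages on average (± 0.806 SD over libraries, higher in 4 of 4). The difference between CD8 T and NK was -2.96 points (± 1.20), lower in 4 of 4, although with the mean of single-cell shares aC+C turned to 0.67 and the mean difference became -1.62. With 4 libraries an exact two-sided sign-flip permutation test cannot reach 0.05; both comparisons had the smallest p it allows, which is 0.143 after adjustment over 8 share comparisons.

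**Figure D1:**
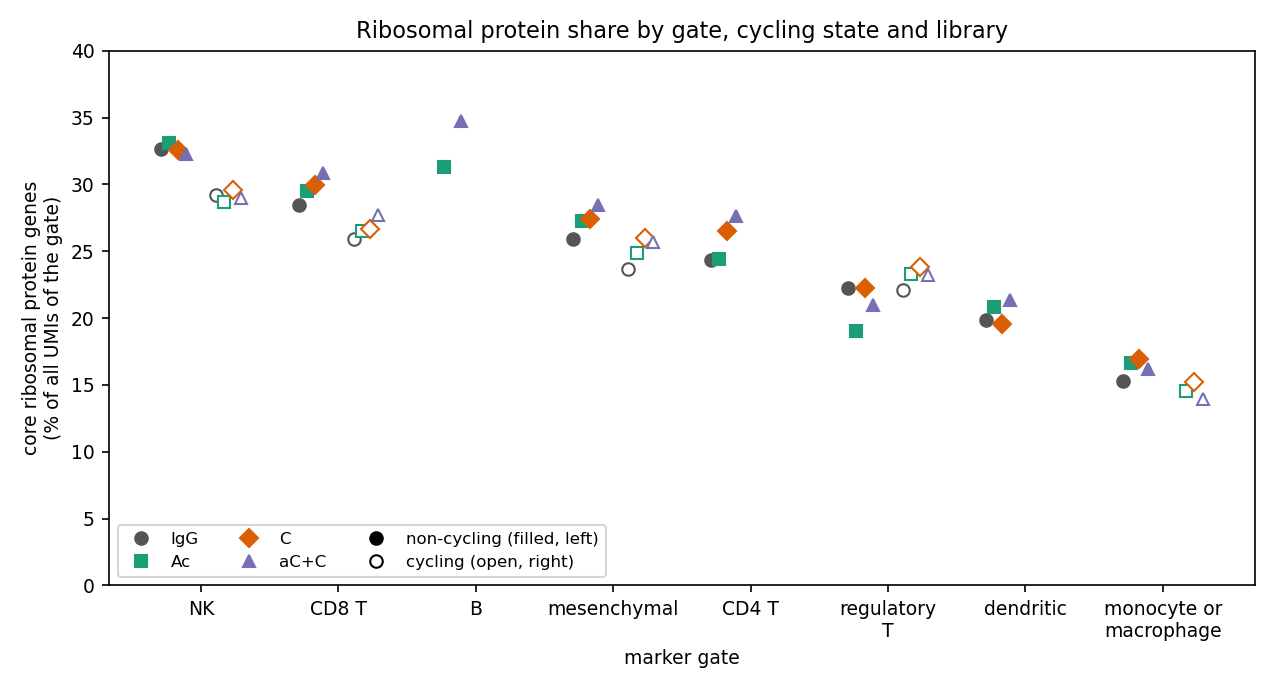
Share of UMIs from the 79 core ribosomal protein genes (vertical axis, percent of all UMIs of the gate) by marker gate (horizontal axis), for non-cycling (filled) and cycling (open) barcodes of each library. Each point is 1 library with at least 15 barcodes in that gate and state. Non-cycling NK lies highest of the large gates and monocyte or macrophage lowest. Open points lie below the filled ones of the same library in NK, CD8 T and mesenchymal. In regulatory T 3 of 4 lie above, with cycling barcodes deeper than non-cycling ones.

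Barcodes of the other gates fell between these, except for B barcodes. Mesenchymal barcodes, which held the most RNA (medians of 30830 to 39764.5 UMIs), had 25.9, 27.3, 27.4 and 28.4%. Dendritic barcodes had 19.9, 20.8, 19.6 and 21.4%. CD4 T had 24.4, 24.4, 26.5 and 27.6%, and regulatory T had 22.3, 19.1, 22.3 and 21.0%. Regulatory T was the lower of the pair in 4 of 4 libraries, by 4.58 points on average (± 1.90, exact sign-flip p adjusted = 0.143). Restricted to barcodes of 10000 to 20000 UMIs in both gates, the difference was -1.5 points (-3.21 to -0.41). B barcodes held 26.8, 31.3, 26.6 and 34.7%, from 3, 18, 13 and 62 barcodes, and in aC+C they were above NK. Single CD8 T barcodes varied more than libraries did: the SD over non-cycling barcodes was 4.83 to 6.35 points.

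Naive-like T barcodes, marked by naive T cell genes such as Lef1, Tcf7 and Ccr7 and by little Gzmb, carried the highest share of any T cell class. CD8 T barcodes within this class had 34.4, 34.3, 35.8 and 39.1%, and those outside it had 27.9, 29.3, 29.4 and 30.2%. Every library was higher within the class, by 6.70 points on average (± 1.61, exact sign-flip p adjusted = 0.143). Barcodes within the class were shallower, with medians of 5043 to 8561 UMIs against 9160 to 10931. At 10000 to 20000 UMIs the difference was 4.55 points in 3 libraries.

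Free RNA in the droplets held nearly the same share as whole cells. Barcodes of 1 to 50 UMIs, too few for a cell, had 22.0, 23.0, 22.8 and 22.3% of their UMIs in core genes. This lies above the monocyte or macrophage share and below the CD8 T and NK shares. The part of free RNA in the gate values was not tested.

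Cycling barcodes gave a smaller share of their UMIs to core ribosomal protein genes in CD8 T, NK and mesenchymal gates. Cycling CD8 T had 25.9, 26.5, 26.6 and 27.7%, which was 2.99 points below non-cycling on average (± 0.366, lower in 4 of 4, exact sign-flip p adjusted = 0.143). Cycling NK had 29.2, 28.7, 29.5 and 29.0%, a difference of -3.56 points (± 0.605), and mesenchymal differed by -2.18 points (± 0.557), each lower in 4 of 4 with the same p. With the mean of single-cell shares the NK difference was -2.24, and without the 5% of barcodes with most UMIs the mesenchymal one was -1.42 in 3 libraries. Cycling barcodes were also deeper: medians were 20026 to 21593.5 UMIs in cycling and 9138 to 10678.5 in non-cycling CD8 T. At 10000 to 20000 UMIs in both states the CD8 T difference grew to -4.76 points.

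The decrease was not seen in every gate. Monocytes or macrophages were lower when cycling in Ac, C and aC+C by 2.09, 1.68 and 2.28 points, while IgG was higher by 1.41 points with 10 cycling barcodes (mean -1.16, exact sign-flip p = 0.25; without IgG -2.02). Regulatory T went the other way in 3 of 4 libraries: cycling minus non-cycling was -0.12, 4.22, 1.59 and 2.26 points. These values rest on 18 to 24 cycling barcodes per library and were not tested. Cycling regulatory T barcodes were also deeper, with medians of 11690 to 20413 UMIs against 4717 to 6070. Non-cycling regulatory T held 23.7% on average at 10000 to 20000 UMIs and 21.1% without that limit, while cycling ones held 22.1 to 23.8%. The part of depth was not tested. CD4 T had 6 to 11 cycling barcodes per library and lower shares in all 4, by 4.39 to 6.26 points.

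Gene by gene, most core genes took a smaller part in cycling CD8 T barcodes. Of 79 core genes, 55 were lower and 6 higher at an adjusted p under 0.05 (edgeR quasi-likelihood test with library as block, Benjamini-Hochberg over all genes tested). Over all 10098 genes tested, 23.3% were lower and 24.2% higher. The median log2 change of the core genes was -0.14, against -0.03 over all genes. The large subunit had 33 of 47 genes lower and 3 higher, the small subunit 22 of 32 lower and 3 higher. The remaining 18 core genes had log2 changes of -0.08 to 0.07. In the model without the library block, 27 core genes were lower and 1 was higher.

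Rps27, a zinc-finger protein of the small subunit, had the largest decrease apart from its own copy. Its level in cycling CD8 T was 2014, 2058, 1892 and 1838 CPM (UMIs of the gene in 1000000 UMIs of the gate and state), and in non-cycling CD8 T 2993, 3231, 2941 and 2910. The 2 states did not overlap, and the log2 change was -0.63 (SE 0.035, adjusted p = 3.36e-10, lower in 4 of 4). Rps27rt, identical to Rps27 over the 341 aligned bases, changed by -0.65. Then came Rpl37a at -0.37, Rps21 at -0.35, Rpl30 at -0.33 and Rpl34, Rpl36 and Rpl24 at -0.32 each. Ribosomal proteins encoded by genes outside the rule fell as well: Fau, whose product is a ubiquitin-like protein fused to Rps30, by 0.40 on the log2 scale, and Gnb2l1, a scaffold protein on the small subunit, by 0.13.

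Rps2, a small subunit protein at the messenger RNA entry side, was among the 6 higher genes, though not the highest of them. It had 4579, 4394, 3995 and 4708 CPM in cycling and 4112, 3878, 3654 and 4252 in non-cycling CD8 T. Each library was higher when cycling, although the ranges of the states overlap (log2 change 0.16, SE 0.030, adjusted p = 0.000458). Rpl28 (0.13), Rpl31 (0.11) and Rpl41 (0.08) also rose. At matched depth, a window of 10000 to 20000 UMIs, no core gene was higher. Cycling barcodes stayed the deeper ones within it, with medians of 14936.5 to 15853 UMIs against 12361 to 13328. Among barcodes of 10000 to 20000 UMIs, 77 core genes were lower, with a median of -0.31, and Rps2 itself was lower at -0.32, Rpl28 at -0.17, Rpl31 at -0.19 and Rpl41 at -0.18.

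**Figure D2:**
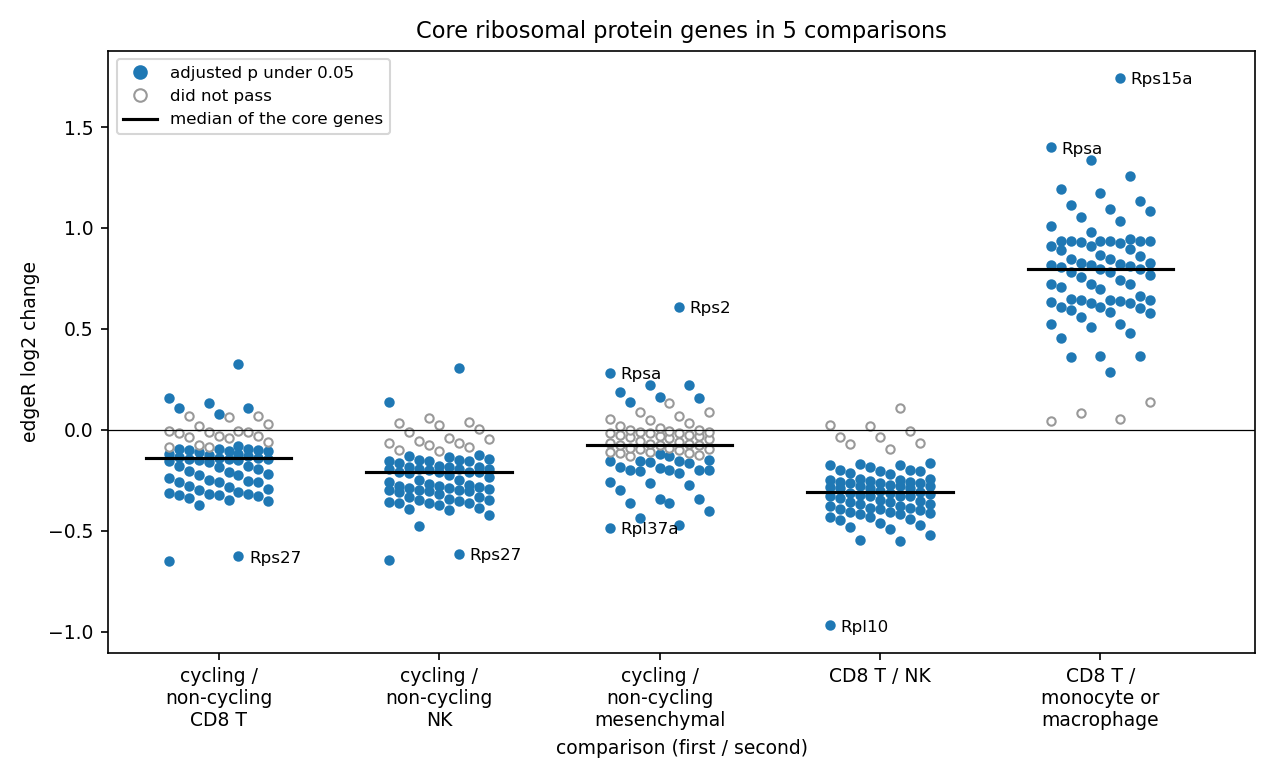
Log2 change from edgeR (vertical axis) of each of the 79 core ribosomal protein genes in 5 comparisons (horizontal axis); each point is 1 gene, filled where the adjusted p was under 0.05, and the line is the median. Medians were -0.14, -0.21 and -0.08 for cycling over non-cycling in CD8 T, NK and mesenchymal, -0.31 for CD8 T over NK, and 0.80 for CD8 T over monocyte or macrophage.

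In NK, too, most core genes fell. When cycling, 62 core genes were lower and 2 higher, with 15.4% of all 8252 genes tested lower and 18.5% higher; the core median was -0.21. Rps27 fell from 3192, 3243, 2919 and 2936 to 2164, 2116, 2070 and 1950 CPM (log2 change -0.61, SE 0.045, adjusted p = 6.75e-13). No cycling library reached a non-cycling one. Rpl36 at -0.48, Rpl30 at -0.42 and Rps21 at -0.39 followed, and Rps20, at 0.14, had the smaller change of the 2 higher genes. Cycling NK barcodes were few, 45, 28, 50 and 19. At matched depth only 2 libraries could be used, with 42 core genes lower and 0 higher. Rpl36 was then at -0.60 and Rps27 at -0.53.

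Mesenchymal barcodes had more divided differences between states, in 3 libraries because IgG had 47 cycling barcodes and was left out. The gate rests on Dcn and collagen genes and was not divided further. Whether its cycling and non-cycling barcodes hold the same cell types was not tested. When cycling, 28 core genes were lower and 8 higher (26.6 and 28.7% of all 10718 genes tested), and the core median was -0.08. Here Rps2 rose most. It had 7546, 7027 and 7307 CPM in cycling and 5004, 4423 and 5551 in non-cycling barcodes of Ac, C and aC+C, without overlap (log2 change 0.61, SE 0.060, adjusted p = 8.3e-06). Rpsa, also known as a laminin receptor, rose by 0.28, and Rplp0, the base of the ribosomal stalk, by 0.22. Rpl37a (-0.49), Rps21 (-0.47) and Rps27 (-0.43) were lowest. Cycling mesenchymal barcodes were deeper, with medians of 67424 to 77104 UMIs against 30830 to 39764.5. At 10000 to 20000 UMIs each library had 0 to 2 cycling barcodes, too few for a comparison at matched depth. In CD8 T the rise of Rps2 turned to -0.32 in that window. The part of depth in the mesenchymal changes was not tested. The counts depended on normalization: scaling by total UMIs alone gave 44 lower and 5 higher, and DESeq2 gave 12 lower and 4 higher; without Ac they were 15 and 5.

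Rps27l went the opposite way from its parent Rps27. This gene, a target gene of p53 whose product can replace Rps27 in the ribosome, rose in cycling CD8 T from 347, 274, 332 and 350 to 469, 414, 431 and 448 CPM (log2 change 0.44, SE 0.046, adjusted p = 7.48e-07). Among the UMIs of Rps27 and Rps27l together, Rps27l made up 18.9, 16.7, 18.5 and 19.6% in cycling and 10.4, 7.83, 10.1 and 10.7% in non-cycling CD8 T. The ranges lie well apart, with a mean difference of 8.67 points (± 0.256, higher in 4 of 4, exact sign-flip p adjusted = 0.172 over 22 paralog comparisons). Cycling NK gave 15.2% against 7.86% on average, and mesenchymal 21.0% against 12.4% in 3 libraries. Non-cycling monocytes or macrophages held 18.8% without cycling.

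Depth moved with this result. At 10000 to 20000 UMIs the difference within CD8 T was 2.83, 3.78, 2.68 and 3.17 points, still higher in 4 of 4 but smaller by more than 1.5 times. Rps27l itself then had a log2 change of 0.01 (adjusted p = 0.94), while Rps27 was lower at -0.42. The part of depth in the unmatched result was not tested further.

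**Figure D3:**
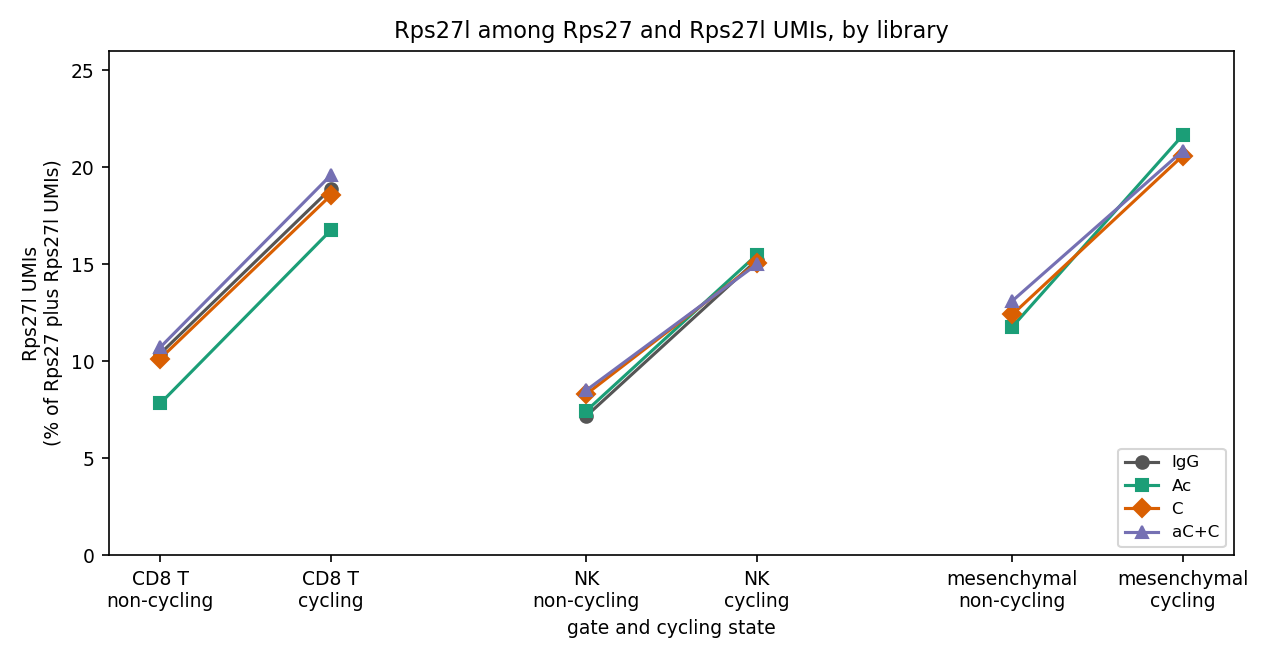
Rps27l as percent of Rps27 plus Rps27l UMIs (vertical axis) in non-cycling and cycling barcodes of 3 gates (horizontal axis); each line joins the 2 states of 1 library. All 11 lines rise, in CD8 T from a mean of 9.77 to 18.4%.

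Rpl22l1, a paralog of the large subunit protein Rpl22, made up 34.6% of the UMIs of both genes in non-cycling NK, 29.4% in CD8 T, 22.2% in monocytes or macrophages and 20.4% in mesenchymal barcodes. Its share was higher in cycling than in non-cycling CD8 T by 4.17 points and in NK by 3.33 points, and lower in mesenchymal by 1.97 points. Rpl36al, a paralog of Rpl36a, made up 47.9% in monocytes or macrophages against 38.9% in CD8 T, and 38.4% in cycling against 30.8% in non-cycling mesenchymal barcodes. Rpl7l1 rose in cycling mesenchymal barcodes (log2 change 0.49, adjusted p = 0.000268). Cycling barcodes were deeper in each of these gates, and the part of depth in these differences between states was not tested. Rpl3l and Rpl39l, known from muscle and testis, had 124 and 104 UMIs over the CD8 T and monocyte or macrophage sums. They were lower in CD8 T than in monocytes or macrophages, with fitted log2 changes of -3.14 and -1.20.

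Among members that are no ribosomal proteins, few passed between cycling states. Rps6kb1, the S6 kinase that mTOR activates, was higher in cycling CD8 T (0.34) and mesenchymal barcodes (0.23). In NK its log2 change of 0.25 did not pass (adjusted p = 0.19). It was the only 1 of 7 kinases tested to pass in each of CD8 T and mesenchymal. Of all genes tested, 24.2% were higher and 23.3% lower in cycling CD8 T, and 28.7 and 26.6% in cycling mesenchymal barcodes. Between gates more members passed. In CD8 T against monocytes or macrophages, 2 of 8 kinases were higher and 4 lower, and 9 of 11 pseudogenes higher. Of all genes tested, 37.7% were higher and 37.7% lower. Some pseudogenes, such as Rps12-ps3 and Rpl27-ps3, are 100% identical to their parents over the aligned bases. Reads of copy and parent can be split between them, so pseudogene counts are not separate from those of the core genes. Against NK, 3 of 7 kinases were higher and 1 lower, and 7 of 11 pseudogenes were lower. Rps19bp1 was higher in cycling mesenchymal barcodes by 0.78 (SE 0.087, adjusted p = 2.35e-05) and in CD8 T by 0.28.

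The lists of related genes are read against the shares over all genes, which were 24.2% higher and 23.3% lower in CD8 T, 18.5 and 15.4% in NK and 28.7 and 26.6% in mesenchymal barcodes. Of 32 ribosome biogenesis genes, 11 were higher and 1 lower in cycling CD8 T, led by Nop58 (0.62), Gar1 (0.60) and Ncl (0.57), which act in modifying and maturing ribosomal RNA. In NK 7 were higher, a share near that of all genes, and 0 lower, and in mesenchymal barcodes 31 were higher and 0 lower, with Dkc1 at 1.39. Of the mitochondrial ribosomal protein genes, 47 were higher and 6 lower of 76 tested in CD8 T, 23 and 1 in NK, and 58 and 1 in mesenchymal. Of 15 translation factors and related genes with TOP messenger RNAs, 2 were higher (Hnrnpa1 and Npm1) and 7 lower in CD8 T, among them Eif3e (-0.38) and Eif3f (-0.35), subunits of an initiation factor. This list had 2 higher and 6 lower in NK, and 6 higher and 3 lower in mesenchymal barcodes.

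Non-cycling CD8 T held more of nearly every core gene than monocytes or macrophages. At an adjusted p under 0.05, 75 of 79 were higher and 0 lower, with 37.7% of all 11149 genes tested higher and 37.7% lower. The core median was 0.80 on the log2 scale, and it was 0.78 at matched depth. The 4 others, Rps25, Rps29, Rpl10 and Rps9, lay between 0.04 and 0.14. Gnb2l1 (0.71) and Fau (0.34) were higher too. Rps15a, a small subunit protein, differed most: 8202, 8767, 8298 and 8723 CPM in CD8 T against 2291, 2415, 2465 and 2470. The gates did not overlap, and the log2 difference was 1.74 (SE 0.058, adjusted p = 5.87e-09). Rpsa followed at 1.40, Rpl13a, a large subunit protein known to be released from ribosomes in interferon-treated monocytes, at 1.34, and Rpl12 at 1.26. Myeloid markers, on which the gates were defined, had 0.46 to 0.94 UMIs per 10000 in CD8 T and 199 to 232 in the other gate. The part of RNA from other cells in the difference was not tested.

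The sequence at the transcription start was read for these members as RefSeq gives it (build GRCm38.p6), because the TOP motif lies there. Of the 79 core genes, 58 had an entry, with 68 start sites. In windows of 30 bases centred on the start, 45.6% held a run of at least 6 pyrimidines (C or T) on the gene's strand that reached within 5 bases of the start, as did 20.2% of 32851 windows of all genes. CTTTC was in 25% against 4.05%, and its reverse complement GAAAG in 4.41% against 3.60%. Of the biogenesis windows 5.71% held such a run. Windows of 4 genes named for their differences between gates, states or libraries are shown, with the longest pyrimidine run that reached within 5 bases of the start in capitals (a longer run farther away is not marked):
Rps27, chr3:90213634-90213663, minus strand: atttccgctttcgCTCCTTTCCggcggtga
Rps15a, chr7:118116133-118116162, minus strand: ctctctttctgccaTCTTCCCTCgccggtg
Rpl13a, chr7:45128731-45128760, minus strand: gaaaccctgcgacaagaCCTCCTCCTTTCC
Rpl35, chr2:39005117-39005146, minus strand: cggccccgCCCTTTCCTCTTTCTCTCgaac
The 4 shown are those with such a run of 6 among the core genes whose windows were read singly. Windows of Rpsa, Rpl10, Rps25, Rpl41 and Rpl22 held none. Only RefSeq starts were read, and the part of such runs in the differences described here was not tested.

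Compared with NK, non-cycling CD8 T held less of most core genes. Of 79, 70 were lower and 0 higher (21.0 and 20% of all 10007 genes tested), with a median of -0.31. The effective library sizes used here moved all genes, whose median was 0.17 higher when only total UMIs were used; on that scale 48 core genes were lower and 6 higher. Rpl10, an X-linked large subunit protein that joins late in assembly, had the lowest value of the core genes. It had 2018, 2160, 2406 and 2284 CPM in CD8 T and 3652, 4053, 4018 and 3798 in NK (log2 difference -0.97, SE 0.060, adjusted p = 5.24e-09). The gates did not overlap. Its pseudogene Rpl10-ps3, identical over the aligned bases, differed by -1.05 at 15.3 to 27.9 against 31.4 to 44.7 CPM. Next were Rps12 (-0.55), Rpl36 (-0.54), Rpl38 (-0.52) and Rplp1 (-0.49). Rpl13a had the highest value, 0.11, and did not pass.

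Between the libraries, core genes differed little as a group within CD8 T. The non-cycling share over that of IgG was 1.04, 1.05 and 1.09. In NK the ratios were 1.01, 0.997 and 0.989, and in monocytes or macrophages 1.09, 1.11 and 1.06. Counting error is below 0.01 in each, but a single library per group gives no spread to set these against. Naive-like barcodes, which have high shares, were 61 of 654, 43 of 844, 44 of 400 and 87 of 643 in non-cycling CD8 T. Outside that class the shares keep the order, as given above. Over all barcodes the ratios were below 1, at 0.970, 0.978 and 0.978.

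Single core genes in the whole CD8 T gate mostly stayed within 1.5 times of IgG. None of 79 passed in Ac (1.05% of all genes measured were at least 1.5 times higher and 3.5% lower) or in C (1.25 and 1.87%). In aC+C 1 was higher and 1 lower (1.56 and 6.83%). The higher was Rpl35, a protein at the exit of the large subunit's peptide tunnel, with 1278, 1398, 1820 and 1967 CPM and ratios of 1.09, 1.42 and 1.54. C and aC+C were high and IgG and Ac low, and the same split was seen in barcodes of 1 to 50 UMIs, with ratios of 1.16, 1.43 and 1.40. The lower was Rps27rt, at 1.04, 0.699 and 0.604. Among the other members measured, only Rpl10-ps3 passed, in C at 1.57 from 181 and 229 UMIs. Rps28 had ratios of 0.984, 0.756 and 0.792, Rpl27 1.05, 0.769 and 0.847, and Rpl23a 1.04, 0.778 and 0.832. Rpl15 was higher, at 1.06, 1.31 and 1.31.

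Gm10073 and Gm10076, near copies of ribosomal protein genes that carry no such symbol, differed far more. Gm10073 lies at chr8:106572966-106573461 on the minus strand (GRCm38) and is annotated as protein coding; over its 496 bases it is 98.8% identical to the messenger RNA of Rplp1, an acidic protein of the ribosomal stalk. Gm10076 lies at chr14:105681828-105682211 on the plus strand, is annotated as a long intergenic non-coding RNA, and matches Rpl41, the smallest ribosomal protein, at 99.5% over 383 bases. The copies differ from their parents by 6 and 2 substitutions. Counted from the 5′ end of the parent transcript, those of Gm10073 are C123T, A167G, C359T, A360G, C372T and T480C, and those of Gm10076 are C317T and G424A. Windows of 25 bases around 3 of them show how alike the sequences are, with the differing base in capitals:
Rplp1 at T480C: tgttaagttggcTaataaagagctg
Gm10073 at T480C: tgttaagttggcCaataaagagctg
Rpl41 at C317T: agtaagccagccCgtgcacctacga
Gm10076 at C317T: agtaagccagccTgtgcacctacga
Rpl41 at G424A: tagacctggaacGtcacctcgccgc
Gm10076 at G424A: tagacctggaacAtcacctcgccgc

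Gm10073 in CD8 T had 127, 117, 295 and 354 CPM. Its ratios to IgG were 0.919, 2.33 and 2.79. The same ratios were 0.902, 2.31 and 2.43 in NK and 1.05, 2.50 and 2.69 in monocytes or macrophages. Barcodes of 1 to 50 UMIs, which hold free RNA and not cells, gave 1.15, 2.30 and 2.60. C and aC+C were thus high and IgG and Ac low in each of the 4 populations. The parent Rplp1 stayed at 1.01, 0.973 and 1.01 in CD8 T, and copy and parent summed to 1.01, 1.01 and 1.06. Of that sum, Gm10073 made up 2.50, 2.27, 5.78 and 6.58%.

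Gm10076 followed the same split with another order. CD8 T levels were 388, 483, 1002 and 917 CPM, or 1.24, 2.58 and 2.36 times IgG, and barcodes of 1 to 50 UMIs gave 1.23, 2.58 and 2.08. It was 7.12, 9.16, 19.8 and 15.6% of the UMIs of both genes. Rpl41 was at 0.947, 0.803 and 0.981 of IgG, lowest in C, where its copy was highest, and the sum was at 0.968, 0.930 and 1.08. Reads without a differing base cannot be told apart between copy and parent, and how the authors' software assigned them is not given in the sources used here.

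**Figure D4:**
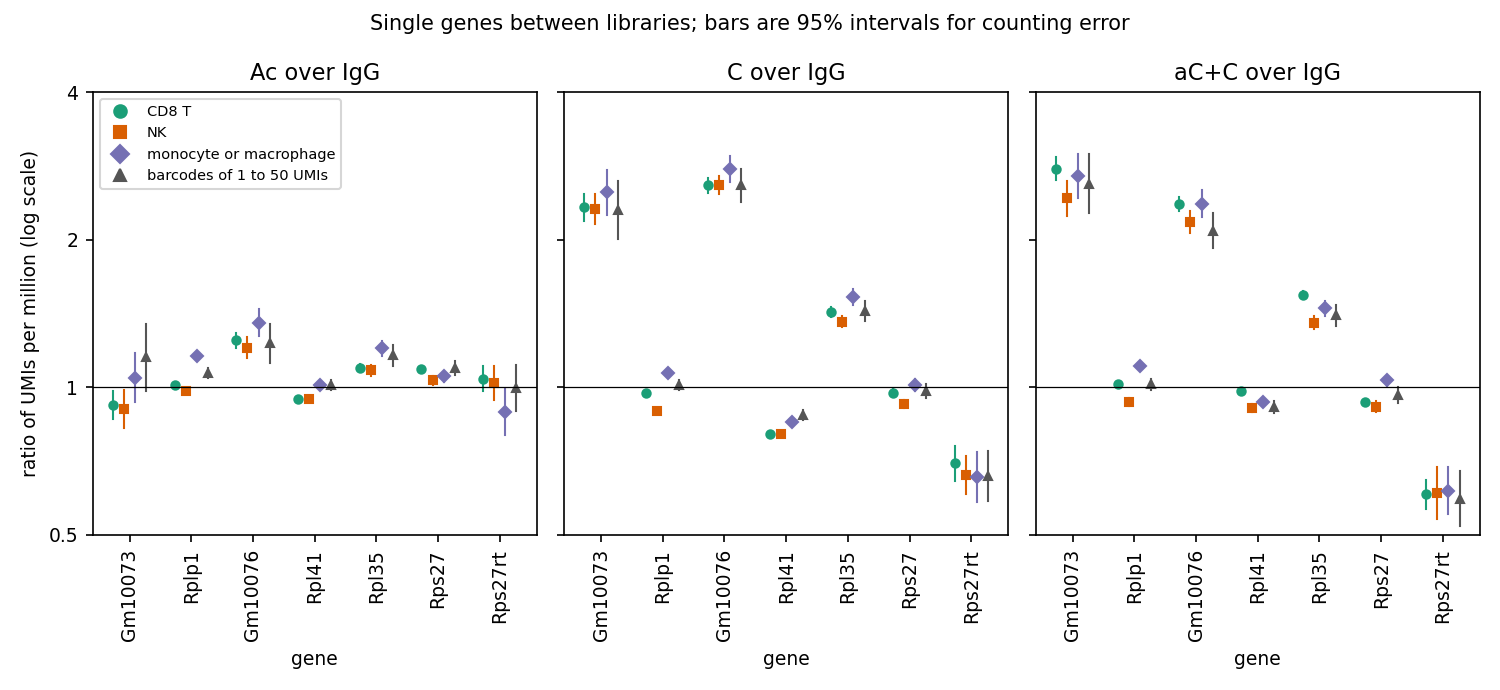
Ratio of the level, in CPM, to that in IgG (vertical axis, log scale) for Gm10073 and Gm10076, their parents Rplp1 and Rpl41, and Rpl35, Rps27 and Rps27rt (horizontal axis) in 3 gates and in barcodes of 1 to 50 UMIs; bars are exact 95% intervals for counting error. In C and aC+C, Gm10073 and Gm10076 lie above 2 and Rps27rt below 0.7 in each of the 4 populations.

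Few genes shifted library-wide in this way, that is, by at least 1.5 times the same way in CD8 T, NK, monocyte or macrophage and 1 to 50 UMI barcodes. In C over IgG 9 of 5751 genes measured in all 4 were higher (0.156%) and 4 lower (0.0696%). In aC+C over IgG 9 of 5445 were higher (0.165%) and 6 lower (0.11%), and in Ac over IgG 0 of 5659 were. Gm10073 and Gm10076 were in both lists of higher genes. Others were Gstp1, Pgk1 and Hist1h2ap, while Gm10020 was in the list of C. Rps27rt was the only core gene, in the lower list of aC+C.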

How the data were processed

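Cells of 4 mouse libraries were captured with 10x Genomics single cell 3′ reagents, per the labels' protocols. Cell Ranger 2.1.1 and the build mm10 stand in the submitters' processing notes; the matrix headers name software 3.0.2. The deposited matrices hold raw UMI counts for 27998 genes and 6794880 barcodes, unfiltered, with the deposited gene and barcode lists (other: names, not values). Totals were 61519049 to 75665201 UMIs per library. UMIs correct for amplification, while free RNA is counted with the cell. For the annotation release and for reads shared by near-identical genes: not given in the sources used here.

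Members and lists were chosen with earlier results of these data known. Barcodes with at least 1000 UMIs and at most 10% mitochondrial UMIs were gated by marker UMIs (T at least 2, NK at least 2, myeloid and mesenchymal at least 20, with maxima on the other lineages). Barcodes meeting 2 gates were set aside (0, 1, 2 and 1), and no doublet caller was run. Cycling needed at least 3 UMIs and 10 per 10000 of 14 genes, non-cycling under 5 per 10000.

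Counts were summed per library, gate and state and tested with edgeR 4.0.16 (quasi-likelihood, TMM, filterByExpr, library as block, R 4.3.3), Benjamini-Hochberg adjusted over all genes at 0.05, in arms of at least 50 barcodes; the test was checked on simulated data. Only 1 library met that minimum for NK, so 15 was used there, and the mesenchymal comparison and the depth-matched setting (10000 to 20000 UMIs, at least 10 barcodes) were added, all after seeing the data. Nothing in the labels says whether libraries come from separate animals, so p-values measure only the spread between these libraries. Shares were compared by exact sign-flip permutation (scipy 1.17.1). Library ratios were taken for genes whose UMIs in the pair of libraries summed to 100 or more, with exact 95% intervals for counting error only.

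Named genes were, per comparison, the 10 core genes changed most in each direction among those past 0.05 with 1 sign in every library, all paralogs with their parents, Fau and Gnb2l1, and between libraries the 5 highest and 5 lowest. Rps25, Rps29, Rps9, Rpl13a in CD8 T over NK, the kinases, Rps19bp1 and Rpl10-ps3 were named after their values were seen. Positions are from GENCODE (GRCm38). Rps4l and Rpl26l1 are not analysed here, and a few genes that meet the naming rule are not reported here.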

Additional observations from a re-analysis of the deposited data

Results flagged for a closer look

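Core genes that went one way with cycling in every library of CD8 T or NK and the opposite way in every library of the mesenchymal gate, passing in both, were Rpl32, Rpl18 and Rpl8, all of the large subunit. Rpl32 had a log2 change of -0.14 in CD8 T, -0.28 in NK and 0.16 in mesenchymal barcodes. For Rpl18 the values were -0.18, -0.21 and 0.16. Rpl8 had -0.21 in NK and 0.14 in mesenchymal barcodes. In the mesenchymal gate the edgeR adjusted p was 0.015 for Rpl32, 0.018 for Rpl18 and 0.044 for Rpl8. Counts of higher core genes there depended on normalization, with 8 in the main setting and 4 with DESeq2. The difference between gates was not tested. Cycling mesenchymal barcodes were deeper than non-cycling ones, and too few lay at 10000 to 20000 UMIs for a comparison at matched depth. Across the 79 core genes and 3 pairs of gates, 18 such opposite pairs in 11 genes were counted when passing was not asked for. Opposite pairs among all genes were not counted.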

How the results depend on the processing

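Counts of core genes held within 1.5 times under most alternatives. For CD8 T cycling, no library block gave 1 higher and 27 lower and matched depth gave 0 higher; leaving out 1 library gave 3 to 5 higher (3 without aC+C). For NK, no low-count filter and a minimum of 5000 UMIs each gave 1 higher, matched depth 0, and leaving out a library 1 to 2. For mesenchymal, DESeq2 gave 4 higher and 12 lower, total UMIs without TMM 5 and 44, no library block 3 and 15, a mitochondrial maximum of 5% 4 higher, and leaving out a library 4 to 9 higher and 15 to 28 lower. For CD8 T against NK, total UMIs without TMM gave 6 higher. Shares in CD8 T against IgG moved to 1.03 (Ac) and 1.06 (C) with the mean of the share per cell, to 1.03, 1.05 and 1.08 (aC+C) at 5000 UMIs, to 1.04 and 1.05 for Ac and C at a mitochondrial maximum of 5%, to 1.03 (C) and 1.06 (aC+C) at 10000 to 20000 UMIs, and to 1.09 (aC+C) with 5% background removed. As share of core UMIs, Gm10076 was 1.20, 2.47 and 2.20, Gm10073 in aC+C 2.60, and 1 core gene passed 1.5 times in aC+C. Of 1090 alternative values of named genes, 1022 kept direction and call, 64 kept direction only and 4 reversed. Core genes were named among those past the adjusted p limit, changed most and of the same sign in every library. Refits of the same libraries favour keeping direction for genes chosen this way, so the 1022 cannot measure how robust changes are in general. The 4 that reversed were all at matched depth in CD8 T: Rpl28 -0.17, Rpl31 -0.19, Rpl41 -0.18 and Rps2 -0.32. Unless stated, the cause was not tested. No paired analysis was possible because each group holds 1 library; gates and states were paired within libraries instead. Matched depth, the NK minimum and the mesenchymal comparison were chosen after seeing the data. Depth limits the pseudogenes, of which 4 of 16 had under 100 UMIs.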
